A study of Mus musculus with 16 samples.

Results

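The visceral endoderm secreted and lipoprotein genes described here were 9 genes: the apolipoproteins Apoe, Apoa1, Apoa2, Apoa4 and Apob, the serum proteins Afp, Ttr and Rbp4, and the transcription factor Hnf4a. They were taken by name, with every probe set annotated to them, out of 12393 genes with a probe set of their own on the Affymetrix mouse 430A array, a chip that measures each transcript with sets of short probes. All 9 genes had at least 1 probe set, and together they had 22. Total RNA of mouse embryonic stem (ES) cells was measured on 16 arrays in 6 groups. The KO lines carried an inactivated allele on both chromosomes and the WT lines carried none. ES lines of both genotypes came from individual blastocysts of a heterozygous intercross, on a mixed background labelled mix 129/C56Bl/6. KO growing and WT growing cells (3 arrays each) were unirradiated. KO 2 h and WT 2 h cells (3 arrays each) were taken 2 h after gamma irradiation (IR) with 8 Gy. KO 24 h and WT 24 h cells (2 arrays each) were taken 24 h after IR, at a dose not given in the sources used here. All groups grew with LIF on mitomycin-treated fibroblast feeders and, after trypsin, spent 1 h on gelatinised dishes so that feeders would be removed. The labels do not say how many lines or cultures stand behind the arrays of a group, so p-values measure the spread between arrays, which may be technical.

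Visceral endoderm is the outer epithelium of the early mouse embryo. Before the liver forms it takes up maternal nutrients and secretes the embryo's first serum proteins and lipoproteins, and HNF4A is required there for much of this secretory program. Apolipoproteins package lipid for transport. APOB is the scaffold of particles built on triglyceride, and APOA1 and APOA2 are the main proteins of high-density lipoprotein. APOA4 is carried on particles of the gut and liver, and APOE is a ligand through which cells take particles up. Undifferentiated ES cells are not visceral endoderm, but cultures of them can hold cells that differentiate toward it.

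Promoters are shown for the 3 apolipoprotein genes whose measured levels the results turn on. Each sequence is the 250 bases before the first-listed RefSeq start site in build GRCm38.p6, read 5′ to 3′ on the gene's strand. Capitals mark matches, on either strand, to TATAAA (the letters of a TATA box) or TGTTTNC (the core bound by forkhead factors, where N is any base). The Apoe stretch is chr7:19699189-19699438 on the minus strand, the Apoa1 stretch is chr9:46228380-46228629 on the plus strand and the Apoa2 stretch is chr1:171224804-171225053 on the plus strand.
Apoe: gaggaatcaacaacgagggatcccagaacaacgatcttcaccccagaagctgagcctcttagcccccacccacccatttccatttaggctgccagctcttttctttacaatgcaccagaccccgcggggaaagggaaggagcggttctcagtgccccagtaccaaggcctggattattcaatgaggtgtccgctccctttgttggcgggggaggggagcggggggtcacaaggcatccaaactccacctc
Apoa1: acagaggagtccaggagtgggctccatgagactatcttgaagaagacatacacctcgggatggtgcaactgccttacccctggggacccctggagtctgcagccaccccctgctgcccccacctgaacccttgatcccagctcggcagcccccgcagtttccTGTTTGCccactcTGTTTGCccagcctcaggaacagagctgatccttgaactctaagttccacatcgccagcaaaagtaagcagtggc
Apoa2: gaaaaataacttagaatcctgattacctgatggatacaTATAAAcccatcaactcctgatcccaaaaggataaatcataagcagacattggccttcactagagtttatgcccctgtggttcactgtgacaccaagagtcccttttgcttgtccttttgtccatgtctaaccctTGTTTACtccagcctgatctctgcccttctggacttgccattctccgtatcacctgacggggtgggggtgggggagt

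The Apoa1 stretch held 2 forkhead cores, whose first bases lay at -88 and -75 from the start site. The Apoa2 stretch held 1 forkhead core at -77 and 1 TATAAA match at -212. The Apoe stretch held none of the 5 motifs searched, which were those above, AGATAA (a core bound by GATA factors), CAAAGTCCA (a site bound by HNF4A) and the p53 half-site. Apoe has 3 listed starts, and the stretch before the second of them held 2 overlapping TATAAA matches, at -100 and -96. Over 32851 promoter stretches of this length, 17.8% held TGTTTNC, 12.4% TATAAA, 9.99% AGATAA, 7.13% the p53 half-site and 0.384% CAAAGTCCA. The promoter table used held 8 of the 9 genes with 13 start sites. No match says only that these letters are not in these 250 bases.

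Values are the deposited intensities, on a linear scale with each array's trimmed mean set to 100. Array medians lay between 26.7 and 37.4. A value of 11.9, the 30th percentile of all values, served as the level below which a probe set was taken as dim. Probe sets whose mean passed this level in at least 1 group were tested, which kept 17736 probe sets of 10252 genes. Pairs of arrays correlated at 0.953 to 0.987 over probe sets, and no pair was identical. The control for 18S ribosomal RNA ran from 41.3 to 2942, and 2 arrays exceeded 300, namely KO 2 h replicate 2 and WT growing replicate 1. All 9 pluripotency genes examined, among them Pou5f1, Nanog and Sox2, stood above 11.9 on every array.

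Of the 22 probe sets, 2 were above 11.9 on all 16 arrays: those of Apoe and Apoa2. Another 12 were at or below it on all 16, and 7 probe sets of 5 genes entered the test. Afp, the main serum protein of the fetus, had 5 probe sets that were dim throughout except for 1 value of 13.3 on KO 24 h replicate 1. Ttr, the carrier of thyroxine, had 3 probe sets and a highest value of 7.47. Apoa4 reached 12.6 on 1 array, and Apob exceeded 11.9 on 3 arrays with a highest value of 15.1. These 4 genes had no probe set in the test, and a small difference in them was not detectable at these values. The name visceral endoderm thus says where the genes are known to act, and the 9 were not bright together in these cultures. Probe sets differ in how brightly they read the same amount of RNA, so their levels are not ranked against each other here.

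**Figure D1:**
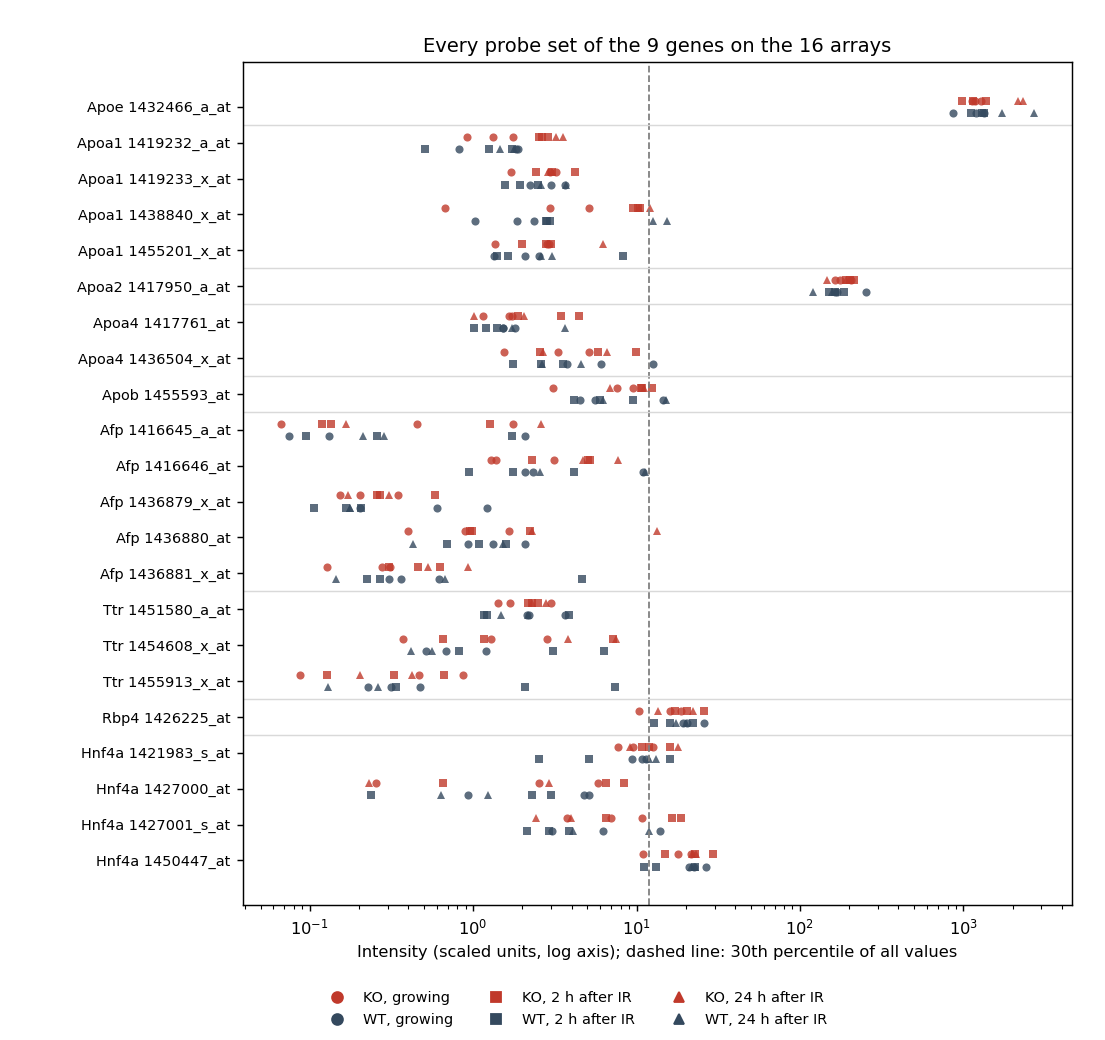
Intensity (log axis) of each of the 22 probe sets on the 16 arrays, with KO arrays in red above WT arrays in blue-grey, the state given by the symbol and the 11.9 level as a dashed line. The probe sets of Apoe and Apoa2 lie wholly to the right of the line, and 12 probe sets lie wholly to its left.

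Among the probe sets tested, Apoe was the one gene of the set called higher 24 h after IR in both genotypes. A dim Apoa1 probe set described below also read higher there. Apoe stood at 1.85 times the growing level in KO cells and 1.93 times in WT cells. Its probe set read 1186, 1282 and 1129 on the KO growing arrays, and 1198, 1335 and 864 on the WT growing arrays. At 2 h it read 982, 1375 and 1144 in KO cells, against 1335, 1307 and 1119.7 in WT cells. At 24 h it read 2309 and 2153 in KO cells, against 2711 and 1726 in WT cells. All 4 arrays at 24 h were above all 12 earlier arrays, the growing and 2 h ranges overlapped, and WT 24 h replicate 1 was the highest of the 16. The mean was 1199 ± 77.2, 1167 ± 197 and 2231 ± 111 in KO growing, KO 2 h and KO 24 h cells, and 1132 ± 242.5, 1254 ± 117 and 2218 ± 697 in WT growing, WT 2 h and WT 24 h cells (SD, n = 3, or 2 at 24 h). From lowest to highest the groups ran WT growing, KO 2 h, KO growing, WT 2 h, WT 24 h and KO 24 h. Neighbours in that order were separated by less than their spread except at the step from WT 2 h to the 24 h groups.

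On log2(intensity + 16), the rise of Apoe was 0.89 ± 0.19 (SE) in KO cells (limma, adjusted p = 0.00966) and 0.95 ± 0.19 in WT cells (limma, adjusted p = 0.00538). It was one among many: 8.02% of all probe sets tested passed in KO 24 h against KO growing and 8.61% in WT 24 h against WT growing. Of the called rises, 324 of 888 in KO cells and 331 of 952 in WT cells were larger than that of Apoe. The KO response minus the WT response was -0.06 ± 0.27, with a 95% interval from -0.63 to 0.52. The arrays were hybridised in 4 runs on 2 days. Within run 3 KO 24 h exceeded KO growing by 0.74, and within run 1 WT 24 h exceeded WT growing by 1.17, with 1 array a group. Leaving out 1 of the 2 arrays at 24 h leaves a lone array, assumed to vary like the other groups, and the outcome depended on which array was left. Without KO 24 h replicate 1 the KO difference was 0.84 ± 0.25 (adjusted p = 0.106), and without WT 24 h replicate 1 the WT difference was 0.62 ± 0.22 (adjusted p = 0.168); neither passed. Without the second hybridisation day, which held replicate 3 of the growing and 2 h groups, the WT difference was 0.77 (adjusted p = 0.0531). No unirradiated culture of the same age was among the groups, so IR and time in culture cannot be told apart, and in bulk RNA fewer or more cells of a type cannot be told apart from less or more RNA per cell.

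**Figure D2:**
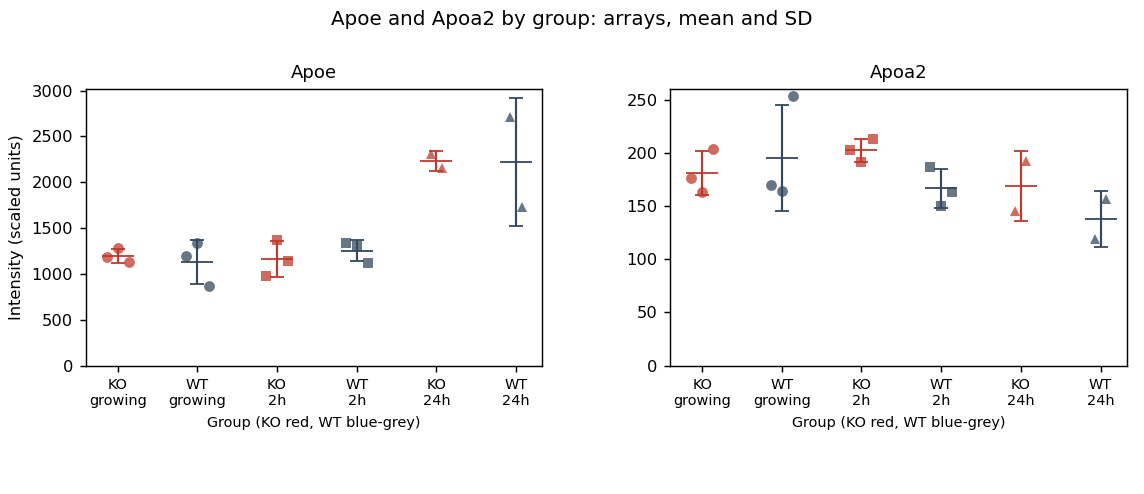
Intensity of Apoe (left) and Apoa2 (right) on each array by group, KO in red and WT in blue-grey, with the group mean and SD as bars. The 4 Apoe values at 24 h lie between 1726 and 2711, above every growing and 2 h array, while the Apoa2 groups lie between 119.6 and 253.

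Apoe did not pass between the genotypes in any state. The KO minus WT difference was 0.10 in growing cells (95% interval -0.26 to 0.47). It was -0.11 at 2 h (-0.48 to 0.25) and 0.04 at 24 h (-0.40 to 0.49). Within runs it was -0.01 and 0.38 in growing cells, -0.41 and 0.03 at 2 h, and 0.32 at 24 h. The sign therefore differed between states and between runs.

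Apoa1 was read by 4 probe sets, of which 3 were dim on every array, with values from 0.505 to 8.31. The fourth, whose identifier carries the mark for possible cross-hybridisation, read 0.677, 5.09 and 2.94 in KO growing cells and 1.87, 1.02 and 2.37 in WT growing cells. At 2 h it read 10.2, 9.47 and 10.5 in KO cells, against 2.78, 2.81 and 2.94 in WT cells, and at 24 h 10.4 and 12.2 in KO cells, against 15.5 and 12.6 in WT cells. At 2 h the KO arrays were all above the WT arrays, and at 24 h the WT arrays were both above the KO arrays. It was above 11.9 on 3 arrays and entered the test only through WT 24 h, so that group had to be high and its response there is a description, not support for a change.

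At 24 h against growing, this probe set differed by 0.76 ± 0.18 in WT cells (limma, adjusted p = 0.012) and by 0.53 ± 0.18 in KO cells (adjusted p = 0.0694). The WT value did not pass when the first WT 24 h array was left out (0.69, adjusted p = 0.141), nor when the second hybridisation day was (0.78, adjusted p = 0.0596). The KO minus WT difference at 2 h was 0.47 ± 0.16 (unadjusted p = 0.00818, adjusted p = 0.185), and within runs 2 and 4 it was 0.48 and 0.49. Among the other 3 probe sets, 1419232_a_at was also higher on all KO 2 h arrays (2.54 to 2.87) than on any WT 2 h array (0.505 to 1.74), at dim values. The 2 h ranges of 1419233_x_at and 1455201_x_at overlapped between genotypes. Fitted without the filter, these 3 differed at 24 h against growing by 0.01, 0.02 and 0.07 in WT cells. In KO cells they differed by 0.16, 0.03 and 0.16.

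**Figure D3:**
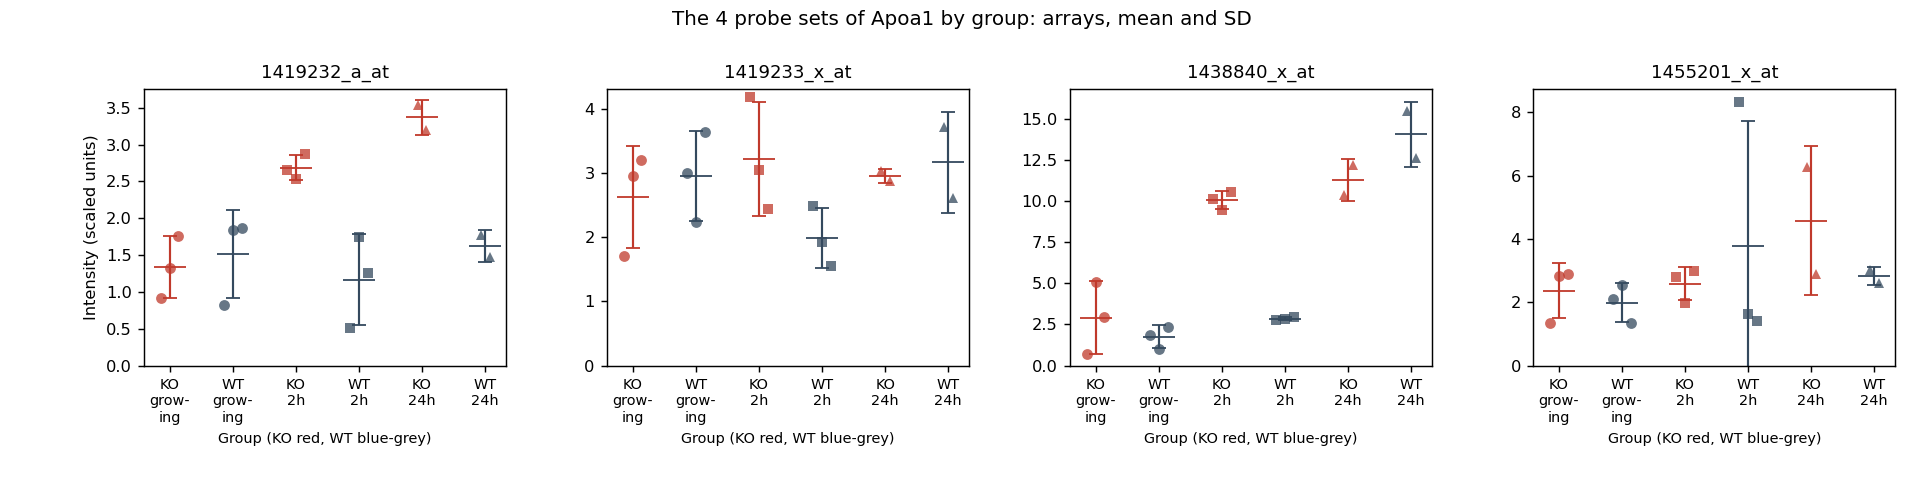
Intensity of the 4 Apoa1 probe sets on each array by group, KO in red and WT in blue-grey, with group mean and SD, each panel on its own axis (the SD bar of 1455201_x_at in WT 2 h runs past 0). Only 1438840_x_at exceeds 11.9, on 1 KO 24 h array and both WT 24 h arrays.

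Apoa2 was bright in every group and was not called in any comparison. It read 176, 163 and 204 in KO growing cells and 169.6, 165 and 253 in WT growing cells. At 2 h it read 203, 191 and 213 in KO cells, against 187, 151 and 164 in WT cells, and at 24 h 146 and 192 in KO cells, against 119.6 and 156 in WT cells. The KO 2 h arrays lay above the WT 2 h arrays, the WT 24 h arrays lay below the WT growing arrays, and all other ranges compared overlapped. The KO minus WT difference was -0.08 in growing cells, 0.26 at 2 h (adjusted p = 0.467) and again 0.26 at 24 h (adjusted p = 0.722). At 24 h against growing the difference was -0.10 in KO cells and -0.45 ± 0.18 in WT cells (limma, unadjusted p = 0.0233, adjusted p = 0.138). Over the 16 arrays Apoe and Apoa2 correlated at -0.71, as a description of arrays that share groups and runs.

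RBP4 carries retinol in blood. Its probe set read 10.4, 16.1 and 18.6 in KO growing cells, against 25.8, 20.4 and 19.4 in WT growing cells, and 10.4 to 25.9 over all 16 arrays. The growing groups did not overlap, and KO was the lower by 0.29 on the log2 scale (limma, difference -0.29, 95% interval -0.66 to 0.08, unadjusted p = 0.112, adjusted p = 0.576). Within runs the growing difference was -0.66 in run 1 and -0.03 in run 4, with 1 array a group. At 2 h the difference was 0.17 and at 24 h -0.05, with overlapping ranges in both.

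HNF4A, a nuclear receptor that activates apolipoprotein and serum protein genes in liver and visceral endoderm, was read by 4 probe sets, of which 3 were tested. The brightest, 1450447_at, ranged from 10.9 to 29.5, with KO minus WT differences of -0.27 (growing), 0.28 (2 h) and 0.01 (24 h). Another, 1427001_s_at, read 18.7, 6.5 and 16.5 in KO 2 h cells, against 2.12, 3.88 and 2.93 in WT 2 h cells, which did not overlap. KO 2 h was the one group whose mean passed 11.9, so this probe set entered the test only through the group where it was high, and its values are given as a description. Its difference at 2 h was 0.63 ± 0.21 (limma, unadjusted p = 0.00851, adjusted p = 0.186). At 24 h it read 3.97 and 2.42 in KO cells, against 4.08 and 11.9 in WT cells, and the difference was -0.30 (adjusted p = 0.762). The third, 1421983_s_at, differed by 0.31 at 2 h with overlapping ranges. The tested Hnf4a probe sets correlated with each other at 0.66, 0.28 and 0.26 over the 16 arrays, and 1450447_at correlated with Rbp4 at 0.67.

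Counted over the 7 tested probe sets, none passed between KO and WT in limma in any state. The background share of called probe sets was 0.248% in growing cells, 0.395% at 2 h with 0.062% at 24 h. At an unadjusted p under 0.05 the counts were 0 in growing cells, 2 at 2 h (Apoa1 and Hnf4a 1427001_s_at) and 0 at 24 h. The Hnf4a probe set had to be high in KO 2 h cells to enter, so it adds nothing to that count. Over all probe sets, the shares at that level were 10.6% (growing), 14.9% (2 h) and 9.59% (24 h). At 2 h 6 of the 7 lay above 0, with a median of 0.28 against 0.05 over all probe sets. In growing cells the median was -0.03 against -0.04, and at 24 h 0.01 against 0.02. The sign count and median at 2 h include Hnf4a 1427001_s_at, which had to be high in KO 2 h cells, and other probe sets of the same gene. Since all 7 differences came from the same 6 arrays of a state, their shared sign is a description. Nor was a raised median at 2 h particular to the 9 genes. It was 0.26 for macrophage and 0.24 for liver markers, though -0.06 for feeder fibroblast markers.

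**Figure D4:**
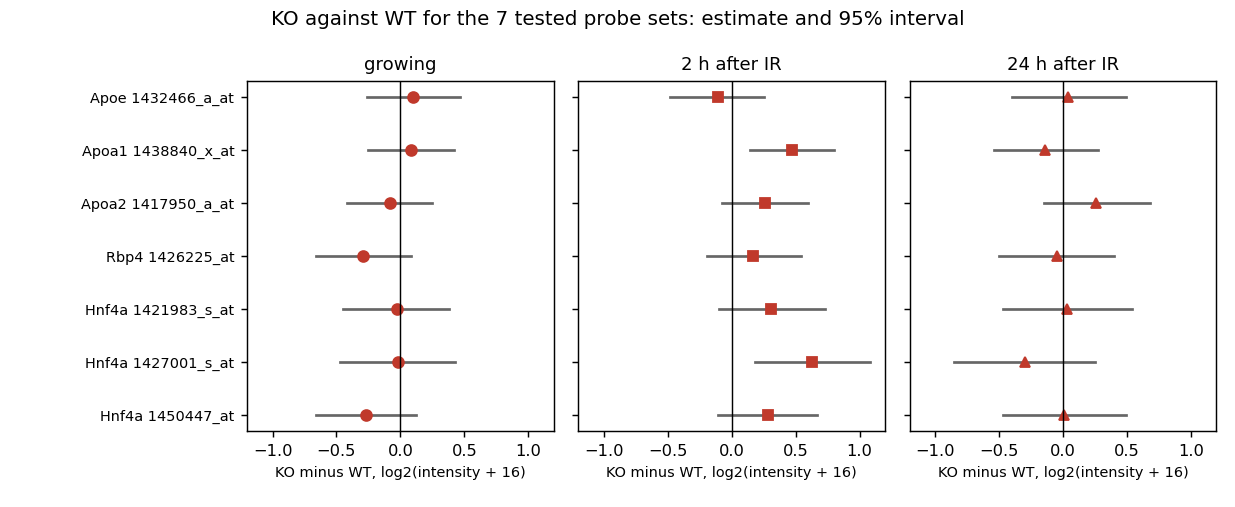
KO minus WT difference in log2(intensity + 16) for the 7 tested probe sets in each state, as points with 95% intervals. At 2 h 6 of 7 points lie above 0, and the intervals of Apoa1 1438840_x_at and Hnf4a 1427001_s_at do not reach 0 before adjustment. The filter required Hnf4a 1427001_s_at to be high in KO 2 h cells.

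In KO 2 h against KO growing none of the 7 passed in limma (background 0.107%), and 1, Apoa1, had an unadjusted p under 0.05, with a difference of 0.47. In WT 2 h against WT growing none passed (background 0.147%) and none had an unadjusted p under 0.05. The median over the 7 was 0.22 in KO cells, against 0.03 over all probe sets, and -0.19 in WT cells, against -0.03. The KO median includes the Hnf4a probe set that had to be high in KO 2 h cells. At 24 h against growing, 1 of the 7 passed in KO cells (Apoe, background 8.02%) and 2 in WT cells (background 8.61%), namely Apoe and the Apoa1 probe set that the filter required to be high there. The KO response minus the WT response passed for none of the 7 at 2 h or at 24 h, where the background was 0.0% in both, and at an unadjusted p under 0.05 the counts were 1 at 2 h (the same Hnf4a probe set, at 0.65, which the filter required to be high in KO 2 h cells) and 0 at 24 h.

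Genes of lipoprotein assembly and exchange did not pass between KO and WT in any state (0 of 12 tested, of 17 listed). The background shares there were 0.248%, 0.395% and 0.062%, at which 0 of 12 says little about the list. At 24 h against growing, where 8.02% of all probe sets passed in KO cells and 8.61% in WT cells, Pltp, the phospholipid transfer protein of plasma, rose in KO cells, and Apoc1 and Apobec1 rose in WT cells. Apoc1, a small exchangeable apolipoprotein encoded beside Apoe, averaged 222 in KO 24 h and 280.5 in WT 24 h cells, against 144 in KO growing and 138 in WT growing cells. Its difference was 0.59 ± 0.27 in KO cells (adjusted p = 0.176) and 0.89 ± 0.27 in WT cells (limma, adjusted p = 0.0441). Apoc2 and Apoc4, from the same gene cluster, were dim and untested. Apobec1, which edits Apob mRNA, differed by 0.71 in KO cells (adjusted p = 0.0683) and rose by 1.11 in WT cells (adjusted p = 0.00669). Pltp rose by 0.77 in KO cells (adjusted p = 0.0205) and differed by 0.36 in WT cells (adjusted p = 0.278), while its other probe set passed in neither, at 0.44 and 0.51. The list's median response was 0.38 in KO cells, against 0.11 over all probe sets, and 0.20 in WT cells, against 0.03.

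Among receptors that take up lipoproteins and other ligands (10 tested of 12 listed), Cubn, the endocytic receptor of yolk sac and kidney, was higher in KO cells in all 3 states. It averaged 42.0 in KO growing, 44.9 in KO 2 h and 71.7 in KO 24 h cells, against 1.94, 9.46 and 12.0 in the WT groups of the same states. The differences were 1.66 ± 0.20 (limma, adjusted p = 0.000312), 1.25 ± 0.20 (adjusted p = 0.0055) and 1.61 ± 0.24 (adjusted p = 0.00866). The WT means in growing and 2 h cells were below 11.9, so the size of these differences depends on the added 16. This probe set entered the test largely through the KO groups, where it was high. The background shares of called probe sets were 0.248%, 0.395% and 0.062%. Its other probe set gave 0.93, 0.91 and 1.46 and did not pass. Amn and Lrp2, which act with CUBN at the cell surface, did not pass, and neither did their adaptor Dab2, at 0.71, 0.96 and 1.06. At 24 h against growing 8.02% of all probe sets passed in KO cells and 8.61% in WT cells. Sorl1, a sorting receptor that binds APOE, rose there by 0.92 in KO and 1.03 in WT cells. By its other probe set it passed in WT cells alone. Lrp1, a receptor of APOE, rose by 1.11 in KO cells (0.82 in WT cells, adjusted p = 0.0585), and Scarb1, the receptor of high-density lipoprotein, rose by 0.81 in WT cells (0.63 in KO cells, adjusted p = 0.0726), with its other 2 probe sets passing in neither.

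**Figure D5:**
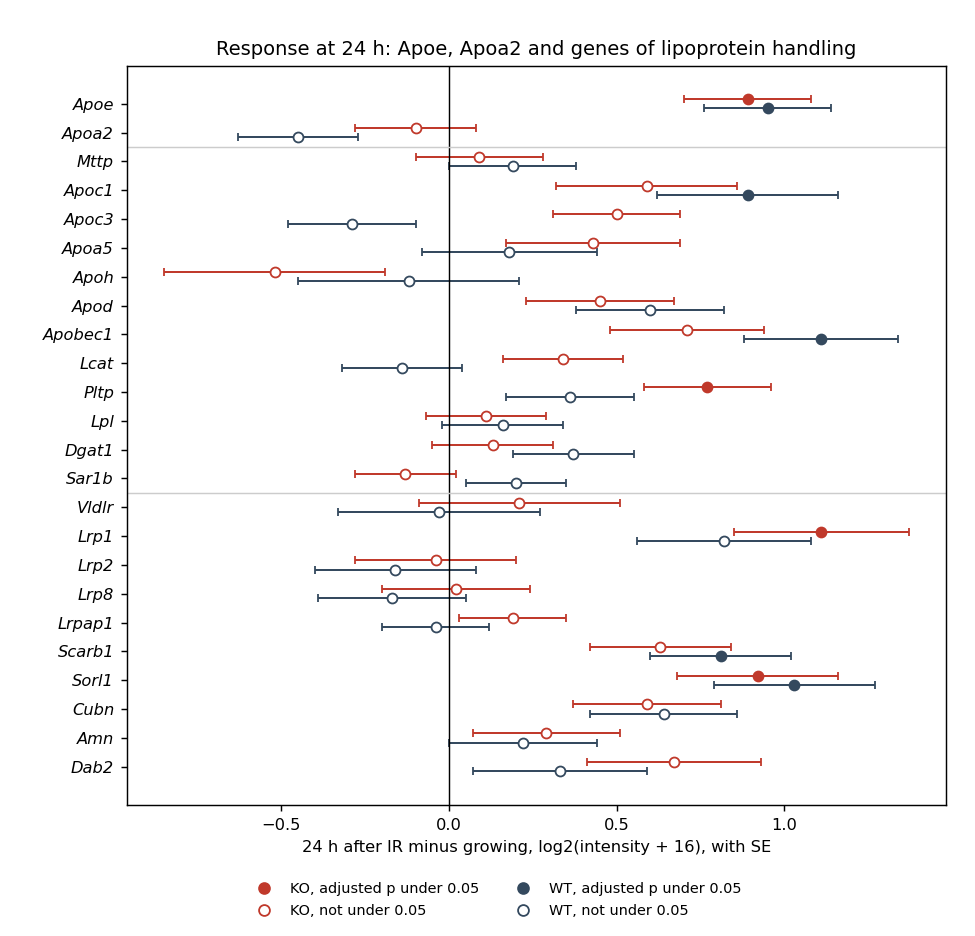
Difference between 24 h after IR and growing cells in log2(intensity + 16), with SE, for Apoe, Apoa2, the 12 genes of lipoprotein assembly and the 10 receptors, KO in red above WT in blue-grey. Filled points have an adjusted p under 0.05: Apoe and Sorl1 in both genotypes, Pltp and Lrp1 in KO cells, and Apoc1, Apobec1 and Scarb1 in WT cells.

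Of 7 tested genes of cholesterol efflux and its nuclear receptor LXR, Abca1, which loads lipid onto APOA1, was higher in KO 2 h than in WT 2 h cells by 1.11 ± 0.16 (limma, adjusted p = 0.0029). It averaged 68.1 in KO 2 h cells and 23.1 in WT 2 h cells, and its other 2 probe sets gave 0.53 and 0.57 and did not pass. By its brightest probe set Abca1 also averaged higher in KO growing cells (61.1 against 29.4) and KO 24 h cells (77.9 against 51.3). Those differences were 0.76 (limma, adjusted p = 0.0586) and 0.47 (adjusted p = 0.477). At 2 h against growing Abca1 differed by 0.14 in KO and -0.21 in WT cells, and neither passed. No gene of this list was called at 24 h against growing, where 8.02% (KO) and 8.61% (WT) of all probe sets were. None of 8 tested genes of retinoid transport and signalling passed at 24 h. None passed between genotypes, where at most 0.395% of all probe sets did. Among them Rarg, a retinoic acid receptor, differed between KO and WT growing cells by 0.73 (adjusted p = 0.115).

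Of 7 other serum proteins tested, none passed between KO and WT, where at most 0.395% of all probe sets did. Spink1, a trypsin inhibitor, fell at 24 h by 1.19 in KO cells (adjusted p = 0.0255) and by 1.38 in WT cells (adjusted p = 0.00975), and Fn1, fibronectin, rose by 0.52 in WT cells (adjusted p = 0.041), while its other probe set fell by 0.62 in KO cells (adjusted p = 0.0371). Alb, albumin, averaged 7.89 to 19.2 over the groups and did not pass. None of 14 tested regulators of endoderm and liver passed between genotypes, where at most 0.395% of all probe sets did, or at 24 h against growing, where 8.02% (KO) and 8.61% (WT) did. Gata6, which acts upstream of Hnf4a in visceral endoderm, differed between KO and WT by 0.36, 0.77 (limma, adjusted p = 0.116) and 0.63 in growing, 2 h and 24 h cells. The list's median KO minus WT difference at 2 h was 0.40, against 0.05 over all probe sets. A raised median there was not particular to this list. It was 0.34 for cholesterol efflux, 0.31 for other serum proteins, 0.26 for macrophage markers and 0.24 for liver markers. For retinoid genes it was 0.03, and for feeder fibroblast markers -0.06.

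Of 15 other visceral endoderm markers tested, none passed between KO and WT, where at most 0.395% of all probe sets did. At 24 h against growing, Cited1, a transcriptional coregulator, rose by 1.33 in KO and 1.19 in WT cells. It averaged 2.61 in KO growing and 11.6 in WT growing cells, against 30.8 in KO 24 h and 42.3 in WT 24 h cells. It was thus dim in growing cells and entered the test largely through the 24 h groups. Fabp3, a fatty acid binding protein, and Lgmn, a lysosomal protease, rose by 1.39 and 0.97 in WT cells, and Lefty1, an inhibitor of Nodal signals, fell by 1.18 in KO cells. In all, 1 of the 15 rose and 1 fell in KO cells, and 3 rose in WT cells, where 8.02% (KO) and 8.61% (WT) of all probe sets passed in either direction.

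Apoe is also made by macrophages and other cells, so marker levels are set beside its rise. At 24 h against growing 8.02% of all probe sets passed in KO cells and 8.61% in WT cells, in either direction. At these shares a single call in a short list says little about the list. Of 8 tested macrophage markers Cd68 alone passed at 24 h, at 0.78 in KO and 1.25 in WT cells. Summed over the 11 markers, intensity ran from 252 to 334 in KO 24 h and 221.5 to 376 in WT 24 h cells. In growing cells it ran from 166 to 231 (KO) and from 165 to 247 (WT). The KO ranges did not overlap, and the WT ranges did. Cd68, Csf1r and Lyz2 were above 11.9 on all 16 arrays, and Ptprc and C1qa were at or below it on every array. Of 20 tested feeder fibroblast markers Mmp2 alone passed, at 1.04 in KO and 0.84 in WT cells. Their sum over 21 genes ran from 2550 to 3295 in KO 24 h and 2572 to 2684 in WT 24 h cells, against 1850 to 3054 in KO growing and 1485 to 4353 in WT growing cells, and these ranges overlapped.

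Of 12 tested parietal endoderm markers, Lamb1 passed in both genotypes at 24 h (0.88 in KO, 0.98 in WT) and Sparc in WT cells (0.70). Their sum over 13 genes ran from 2419 to 2723 in KO 24 h and 2129 to 2794 in WT 24 h cells, against 1968 to 2057 in KO growing and 1344 to 1967 in WT growing cells. These ranges did not overlap within a genotype. In KO cells neither did those of the macrophage and liver sums, so such separation was not particular to parietal endoderm. Much of this sum was Sparc, which averaged 787 in KO growing, 638 in WT growing, 1119 in KO 24 h and 1032 in WT 24 h cells. Of 8 tested liver markers Fah alone passed, at 1.04 in KO and 0.93 in WT cells. Cyp2e1 and Fah were above 11.9 on all 16 arrays, and Asgr1 was at or below it throughout. The liver sum over 9 genes ran from 172 to 209 in KO 24 h and 165 to 196 in WT 24 h cells. In growing cells it ran from 103 to 154 (KO) and from 133 to 195 (WT). Of 8 tested trophectoderm markers, Eomes (0.78) and Tfap2c (0.59) passed in KO cells by their brightest probe sets and none in WT cells, where another probe set of Tfap2c passed (0.74). Their sum over 9 genes ran from 711.5 to 1367 in KO 24 h and 651 to 2774 in WT 24 h cells, against 347 to 584 in KO growing and 477 to 1583 in WT growing cells. The KO ranges did not overlap. This sum leans on its brightest genes. Krt8 averaged 119 in KO growing and 321 in KO 24 h cells (limma, adjusted p = 0.447). Krt18 averaged 114.5 in KO growing and 380 in KO 24 h cells (adjusted p = 0.264). The list's median response was 0.68 in KO cells, against 0.11 over all probe sets, and 0.49 in WT cells, against 0.03. Among the pluripotency genes, Utf1 fell at 24 h by 0.78 in KO cells (limma, adjusted p = 0.0434; -0.68 in WT cells, adjusted p = 0.0726), and Pou5f1 fell by 0.56 in WT cells (adjusted p = 0.0167; -0.41 in KO cells, adjusted p = 0.0735). The part of any of these, or of the falls of Utf1 and Pou5f1, in the rise of Apoe was not tested. Among 12 tested targets of p53, 11 rose in KO and 10 in WT cells at 24 h. Over all probe sets 8.02% (KO) and 8.61% (WT) passed there in either direction. The median response over the list was 1.31 in KO and 1.27 in WT cells.

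By Pearson correlation of log2 values over the 16 arrays, the named genes most like Apoe were Rad51b (0.95), Ptprs (0.95) and Siva1 (0.94). Rad51b was dim outside the 24 h groups, averaging 27.9 in KO 24 h and 25.1 in WT 24 h cells, against 9.64 in KO growing and 10.7 in WT growing cells. The genes most like Apoa2 were Ccne1, Klhdc3 and Tnks1bp1, at 0.82 each. These likenesses describe arrays that share groups and runs.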

How the data were processed

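RNA was measured on 16 arrays. The deposited table holds linear intensities, 1 for each probe set on each array, scaled by the authors to a trimmed mean of 100 as the values show; no source used here names the software that summarised probes. Gene names came from the platform's annotation: 20380 probe sets had 1 symbol, 691 several and 1555 none, and 64 controls were left out. Arrays were grouped by the labels, and hybridisation runs came from the instrument files. Differences were fitted with limma 3.58.1 in R 4.3.3 on log2(intensity + 16), with 6 group means in 1 model, a trended prior and Benjamini-Hochberg adjustment over 17736 probe sets at 0.05, two-sided. The added 16 shrinks differences of dim probe sets. The number of arrays limits precision. The fit was tested on simulated data.

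All probe sets of the 9 genes are described; a gene in a list is represented by its brightest probe set, and the text names genes that passed and at most 3 bright others. A few others (Apoc2, Apoc4, Rarg, Alb, Gata6, Dab2 and the dim markers) were named after their values were seen. The members and lists were chosen with earlier results of these data known. The experiment numbers of the labels were not used as a block: of the comparisons with 3 same-numbered pairs, WT 2 h against WT growing alone had all 3 correlate above 0.1, and there the block changed no call among the 9 genes. Alternatives were the added constant, the filter, quantile normalization, blocks by replicate number or run, and leaving out arrays or marked probe sets. Probe sets of the gene inactivated in KO cells are left out of this account.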

Additional observations from a re-analysis of the deposited data

How the results depend on the processing

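Each single-gene difference was refitted under 24 to 26 alternatives. The rise of Apoe at 24 h was called in KO cells under 25 of 26 and in WT cells under 24 of 26. The number of probe sets called at 24 h in KO cells was 2 with no filter, where Apoa1 had an adjusted p of 0.0158, and ran from 0 to 2 when arrays were left out in turn. The 2 without KO 24 h replicate 2 were Apoe and Afp 1436880_at, which enters only through the lone array left, at 13.3. In WT cells it was 1 with the filter at the 50th percentile or without probe sets marked for cross-hybridisation, 0 without the second hybridisation day, and ran from 0 to 2 when arrays were left out. The counts of the other 7 comparisons stayed at 0 under every alternative run. Quantile normalization moved the median of all probe sets at 24 h in KO cells to -0.01, against 0.11 as deposited, and left Apoe at 0.90. A few small differences, none of them called, changed sign. Without the second day, Apoe differed between KO and WT growing cells by -0.04 and in response at 24 h by 0.08, and Apoa2 differed by 0.02 between KO and WT growing cells and by 0.01 between WT 2 h and WT growing cells. Under quantile normalization Hnf4a 1450447_at differed between KO and WT at 24 h by -0.03 (-0.01 with the run as a block), and Rbp4 at 24 h in KO cells by -0.08. With the run as a block Apoa2 at 24 h in KO cells was at 0.00. With arrays left out in turn, KO minus WT of Apoe ran from -0.08 to 0.23 in growing cells, from -0.24 to 0.00 at 2 h and from -0.28 to 0.37 at 24 h, that of Apoa2 in growing cells from -0.19 to 0.10, and those at 24 h from -0.01 to 0.03 for Hnf4a and from -0.23 to 0.14 for Rbp4. The response of Apoe at 2 h ran from -0.17 to 0.07 in KO and from -0.02 to 0.29 in WT cells, and its difference in response at 24 h from -0.38 to 0.26. At 24 h the response ran from -0.28 to 0.08 for Apoa2 and from -0.06 to 0.31 for Rbp4 in KO cells, and from -0.08 to 0.02 for Hnf4a in WT cells. The causes were not tested. Same-numbered arrays of different groups correlated, as deviations from group means, at -0.09 to 0.29 (median 0.12, 20 of 36 pairs above 0.1), against a median of -0.06 and 1 of 70 for different numbers, and all 16 arrays correlated best, on average, with their own number. That is a hint of pairing from the data. With a replicate block the calls over all probe sets between KO and WT were 124, 198 and 35 (growing, 2 h, 24 h), against 44, 70 and 11 without it. Apoe rose by 0.81 in KO and 0.87 in WT cells with the block, and no call among the 7 probe sets changed in any comparison. The 15 untested probe sets of the 22 had no group mean above the filter level, and with no filter none of the 15 was called in any comparison. Small changes at such dim values could not be measured.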
